A study of Mus musculus with 516 samples.

Results

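Sox10, S100b, Erbb3, Fabp7, Apoe, Cdh19, Ednrb and Glul are 8 genes known as markers of the glia of peripheral ganglia, the satellite cells that wrap sensory neuron cell bodies and the Schwann cells that ensheathe their axons. They were taken by symbol from a table of 11251 genes, all 8 were present, and none was removed by a filter. Their reads were followed per cell, beside neuronal genes, and across 4 groups of single cells from dorsal root ganglia of mice, the relay stations of body sensation. Of 516 cells 273 were of CAST/Ei, 99 of them cultured, and 243 of C57BL/6. In all 210 cells were cultured and 306 naive, which gives the groups cultured CAST/Ei, cultured C57BL/6, naive CAST/Ei and naive C57BL/6. CAST/Ei is an inbred strain derived from wild mice and C57BL/6 the common laboratory strain.

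Cultured cells are those labelled injured: dissociation cuts the axons, and these cells then stood for 48 h on uncoated plastic, with ara-C, which blocks division, added at 24 h, and were lifted with trypsin. Naive cells were captured without culture. All 4 groups passed a 35 µm mesh and a Percoll step at density 1.04 meant to clear myelin debris, were captured on a microfluidic chip for large cells, and were sequenced up to 192 at a time with all conditions mixed on each run. The labels give no age or sex, and from which mouse, dish or chip a cell came is not in them. Each group was therefore taken as a single sample without a test against the others, and the 95% intervals (exact Poisson for reads, exact Clopper-Pearson for shares of cells) cover counting error only. The study was set up to compare cell populations between the strains.

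Satellite and Schwann cells both descend from the neural crest, and Sox10 is the transcription factor that their lineage needs throughout life. Schwann cells read neuregulin on axons through the receptor pair Erbb2 and Erbb3, and after nerve injury they leave the myelinating state, divide and take on a repair state. Satellite cells take up transmitter, pass lipid to neurons and are coupled to each other, and they respond to nerve injury by raising proteins such as Gfap.

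The cells had 13932 to 2978345 reads each, and group medians ran from 696013 to 1111710. Levels are pooled CPM, the usual count scaled to library size: the reads of a gene were summed over the cells of a group and divided by all their reads. Levels of single genes are compared only within a gene because CPM takes no account of transcript length, which also limits the list means that named the clusters described below. Shares of cells are given for libraries thinned to 200000 reads, with a gene called detected at 5 or more reads. This left out 42 shallower cells and kept 187 cultured cells, 90 of CAST/Ei and 97 of C57BL/6, and 287 naive cells. Cultured cells carried a median of 18.5 (CAST/Ei) and 13 (C57BL/6) of 30 neuron marker genes, and naive cells of both strains 27. Fibroblast markers (13 of 15 in the table) summed to 3811 CPM in cultured CAST/Ei, 8860 in cultured C57BL/6, 681 in naive CAST/Ei and 2296 in naive C57BL/6. Endothelial markers (11 of 14 in the table) summed to 44.4 CPM in cultured CAST/Ei, 123.9 in cultured C57BL/6, 290 in naive CAST/Ei and 434 in naive C57BL/6, and each marker of both lists had a read in every group.

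The promoters of Apoe, Fabp7 and Ednrb, which varied together from cell to cell, and of Glul, which did so less, are shown because members of the Sox family bind short AT-rich motifs. Of the 8 genes, 5 were matched in the RefSeq table, and the 250 bases before the RefSeq transcription start are given 5′ to 3′ on the gene's strand (GRCm38.p6). The RefSeq start is that of the gene positions given below for Apoe, lies 15 bases before it for Glul, and lies inside the gene by 42 bases for Fabp7 and by 701 for Ednrb, so the Ednrb window lies wholly within the gene as positioned here. The motifs ACAAAG and ACAATG were searched on both strands and stand in capitals. Apoe lies at chr7:19699189-19699438 (minus strand), Fabp7 at chr10:57784673-57784922 (plus), Ednrb at chr14:103843702-103843951 (minus) and Glul at chr1:153899679-153899928 (plus).
Apoe: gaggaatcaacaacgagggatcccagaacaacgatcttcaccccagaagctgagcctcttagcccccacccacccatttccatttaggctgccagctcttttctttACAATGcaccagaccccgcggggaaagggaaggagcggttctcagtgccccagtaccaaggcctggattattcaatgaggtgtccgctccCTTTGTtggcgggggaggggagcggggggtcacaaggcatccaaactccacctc
Fabp7: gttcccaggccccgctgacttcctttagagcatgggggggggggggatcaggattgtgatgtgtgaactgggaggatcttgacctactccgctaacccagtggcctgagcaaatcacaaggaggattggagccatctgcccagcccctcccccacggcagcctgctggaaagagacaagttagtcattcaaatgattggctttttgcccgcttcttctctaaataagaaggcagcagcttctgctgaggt
Ednrb: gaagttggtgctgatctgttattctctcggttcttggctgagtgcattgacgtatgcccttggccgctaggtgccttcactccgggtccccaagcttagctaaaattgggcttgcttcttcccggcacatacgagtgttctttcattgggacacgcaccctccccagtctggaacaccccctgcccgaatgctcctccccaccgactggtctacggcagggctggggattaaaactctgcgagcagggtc
Glul: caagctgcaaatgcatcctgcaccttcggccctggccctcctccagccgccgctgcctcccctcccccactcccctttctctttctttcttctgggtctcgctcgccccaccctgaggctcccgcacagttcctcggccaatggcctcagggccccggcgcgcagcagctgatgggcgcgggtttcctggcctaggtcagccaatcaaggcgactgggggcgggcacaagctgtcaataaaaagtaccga
The Apoe window held 2 matches, ACAATG and, 54 bases before the start, CTTTGT, the reverse complement of ACAAAG. The windows of Fabp7, Ednrb, Glul and S100b held none, and 25.24% of 32851 mouse promoter windows of this length held at least 1, so a match is common and describes only the letters.

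Sox10 (chr15:79154908-79165240, minus strand) was high in cultured cells and near 0 in most naive cells of both strains. Its pooled level was 136.3 CPM (134.1 to 138.4) in cultured CAST/Ei and 110.5 CPM (108.4 to 112.6) in cultured C57BL/6, against 4.82 CPM (4.50 to 5.16) in naive CAST/Ei and 7.95 CPM (7.43 to 8.49) in naive C57BL/6. The median cell had 62.9 CPM in cultured CAST/Ei and 93.2 in cultured C57BL/6, against 0 in both naive groups, and the highest cell had 1575 CPM in cultured CAST/Ei, 626 in cultured C57BL/6, 236 in naive CAST/Ei and 248 in naive C57BL/6. No read of Sox10 was found in 9 of 99 cultured CAST/Ei and 11 cultured C57BL/6 cells. The naive shares without a read were 74.1% in CAST/Ei and 85.6% in C57BL/6. In each naive group 1 cell carried 33.9% (CAST/Ei) or 33.6% (C57BL/6) of the reads. The highest share of 1 cultured cell was 22.4% in CAST/Ei and 4.69% in C57BL/6. The cultured cells thus spread over the whole range down to 0, while nearly all naive cells sat at or near 0. The log2 ratio of CPM + 1, cultured over naive, was 4.56 in CAST/Ei and 3.64 in C57BL/6. Sox10 was detected in 64.4% of cultured CAST/Ei (53.7 to 74.3) and 80.4% of cultured C57BL/6 cells (71.1 to 87.8), against 3.07% of naive CAST/Ei (1.003 to 7.01) and 4.84% of naive C57BL/6 cells (1.796 to 10.2). Without thinning the shares were 78.8% in cultured CAST/Ei, 80.2% in cultured C57BL/6, 15.5% in naive CAST/Ei and 9.85% in naive C57BL/6.

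Erbb3 (chr10:128567523-128589652, minus strand), the neuregulin receptor that signals only in partnership with another receptor of its family, followed the same division at lower counts. It stood at 21.1 CPM (20.3 to 21.96) in cultured CAST/Ei and 32.04 CPM (30.9 to 33.2) in cultured C57BL/6, against 2.36 CPM (2.13 to 2.60) in naive CAST/Ei and 2.14 CPM (1.87 to 2.43) in naive C57BL/6. The median cell had 3.19 CPM in cultured CAST/Ei and 10.2 CPM in cultured C57BL/6, against 0 in both naive groups. The intervals of the 2 naive groups overlapped, the only pair of neighbouring levels of any of the 8 genes for which they did. The log2 ratios were 2.72 in CAST/Ei and 3.40 in C57BL/6. A single cell held 60.3% of the 411 naive CAST/Ei reads. With the highest cell of each group left out the log2 ratio was 3.50 in place of 2.72. Without the cultured glia-like cells of cluster 9, described below, the CAST/Ei ratio was 0.76, inside 2-fold.

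Cdh19 (chr1:110888326-110977584, minus strand), a cadherin of Schwann cell precursors and mature glia, showed a steep difference as well. It had 622 CPM (617 to 626) in cultured CAST/Ei and 532 CPM (528 to 537) in cultured C57BL/6, against 32.1 CPM (31.3 to 32.97) in naive CAST/Ei and 38.3 CPM (37.1 to 39.4) in naive C57BL/6. The median cultured cell had 184 CPM in CAST/Ei and 221 in C57BL/6, the median naive cell of either strain had none, and the highest cell had 3900 CPM in cultured CAST/Ei, 3306 in cultured C57BL/6, 604 in naive CAST/Ei and 939 in naive C57BL/6. The distributions overlapped, since 25 cultured CAST/Ei and 9 cultured C57BL/6 cells had no read. Detection reached 67.8% of cultured CAST/Ei and 82.5% of cultured C57BL/6 cells, against 22.1% of naive CAST/Ei and 13.7% of naive C57BL/6 cells. The log2 ratios were 4.23 in CAST/Ei and 3.76 in C57BL/6.

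Ednrb (chr14:103814625-103844402, minus strand), the endothelin receptor that satellite cells use and that neural crest cells need to migrate, was higher in culture by a smaller factor and differed more between the strains. Its pooled level was 445 CPM (441 to 449) in cultured CAST/Ei and 1158 CPM (1151 to 1165) in cultured C57BL/6, against 182 CPM (180 to 184) in naive CAST/Ei and 301 CPM (298 to 304) in naive C57BL/6. The median cell had 209 CPM in cultured CAST/Ei and 1026 in cultured C57BL/6, against 2.92 in naive CAST/Ei and 2.18 in naive C57BL/6. The highest cultured cells, at 2441 CPM in CAST/Ei and 3386 in C57BL/6, were below the highest naive ones, at 5870 in CAST/Ei and 5517 in C57BL/6. The log2 ratios of the pooled levels were 1.28 in CAST/Ei and 1.94 in C57BL/6. With cultured glia-like cells, described below, left out, they were 0.73 in CAST/Ei (without cluster 9) and 1.55 in C57BL/6 (without cluster 10).

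Fabp7 (chr10:57784881-57788450, plus strand), a fatty-acid-binding protein of satellite cells and Schwann cell precursors, had 166.5 CPM (164.1 to 168.9) in cultured CAST/Ei and 399 CPM (395 to 403) in cultured C57BL/6, against 100.5 CPM (98.97 to 101.95) in naive CAST/Ei and 277 CPM (274 to 281) in naive C57BL/6. The pooled ratios stayed under 2-fold, with log2 ratios of 0.72 in CAST/Ei and 0.52 in C57BL/6. The median cell differed far more, at 52.9 CPM in cultured CAST/Ei and 359 in cultured C57BL/6, against 1.15 in naive CAST/Ei and 3.55 in naive C57BL/6. Naive reads sat in fewer cells, the highest with 2515 CPM in CAST/Ei and 6310 in C57BL/6. Detection covered 61.1% of cultured CAST/Ei and 80.4% of cultured C57BL/6 cells, against 28.2% of naive CAST/Ei and 29.03% of naive C57BL/6 cells. With the naive cells of cluster 6, described below, left out, the log2 ratios were 1.98 in CAST/Ei and 1.64 in C57BL/6, past 2-fold in both. With cultured glia-like cells left out instead, the ratios fell below 0. They were -0.34 in CAST/Ei without cluster 9 and -0.11 in C57BL/6 without cluster 10.

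Apoe (chr7:19696109-19699188, minus strand), the lipid carrier that glia release, was lower in culture in the pooled reads and higher in the median cell. The pooled level was 566 CPM (562 to 570) in cultured CAST/Ei and 550.3 CPM (546 to 555) in cultured C57BL/6, against 1426 CPM (1421 to 1432) in naive CAST/Ei and 1801 CPM (1793 to 1809) in naive C57BL/6, with log2 ratios of -1.33 in CAST/Ei and -1.71 in C57BL/6. The median cell had 106.1 CPM in cultured CAST/Ei and 355 in cultured C57BL/6, against 38.3 CPM in naive CAST/Ei and 50.4 CPM in naive C57BL/6. The highest cultured cells reached 9834 CPM in CAST/Ei and 10008 in C57BL/6, against 89858 CPM in naive CAST/Ei and 77878 in naive C57BL/6. Of the naive Apoe reads, 1 small set of cells, called cluster 6 below, held 80.8% in CAST/Ei and 62.7% in C57BL/6. Without that cluster the log2 ratio was 0.92 in CAST/Ei and -0.52 in C57BL/6, so the direction turned in CAST/Ei and neither strain was 2-fold lower. Without the cultured cells of cluster 5 it was -0.85 in CAST/Ei. Without the glia-like cells it was -2.69 in CAST/Ei (cluster 9 left out) and -2.36 in C57BL/6 (cluster 10 left out).

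S100b (chr10:76253853-76261159, plus strand), a calcium-binding protein of glia that some large sensory neurons also make, moved in opposite directions in the 2 strains. Cultured CAST/Ei cells had 186 CPM (184 to 189), against 65.6 CPM (64.4 to 66.8) in naive CAST/Ei cells, a log2 ratio of 1.49. Cultured C57BL/6 cells had 70.1 CPM (68.4 to 71.7), against 267 CPM (264 to 269.9) in naive C57BL/6 cells, a log2 ratio of -1.91. The median cell showed a narrower spread, with 60.9 CPM in cultured CAST/Ei, 37.3 in cultured C57BL/6, 22.8 in naive CAST/Ei and 45.3 in naive C57BL/6, and the highest naive C57BL/6 cell had 3737 CPM. S100b overlaps Dip2a on the opposite strand and the libraries carry no strand, so their shared bases cannot be told apart. Dip2a itself stood at 11.5 CPM in cultured CAST/Ei, 18.3 in cultured C57BL/6, 6.28 in naive CAST/Ei and 11.3 in naive C57BL/6.

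Glul (chr1:153899944-153909723, plus strand), glutamine synthetase, which clears glutamate in satellite cells, was the most even of the 8 genes across the groups. It had 37.3 CPM (36.2 to 38.4) in cultured CAST/Ei and 41.03 CPM (39.8 to 42.3) in cultured C57BL/6, against 58.8 CPM (57.7 to 59.9) in naive CAST/Ei and 63.9 CPM (62.4 to 65.4) in naive C57BL/6, with log2 ratios of -0.64 in CAST/Ei and -0.63 in C57BL/6. The median cell had 22.5 CPM in cultured CAST/Ei, 22.3 in cultured C57BL/6, 35.7 in naive CAST/Ei and 22.7 in naive C57BL/6. No read was found in 3 cells of each cultured group, 1 naive CAST/Ei cell and 3 naive C57BL/6 cells. In neuron-like clusters alone the log2 ratio turned, to 0.42 in CAST/Ei and 1.59 in C57BL/6. Glul overlaps Teddm2 on the opposite strand, so reads of their shared bases cannot be told apart either.

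**Figure D1:**
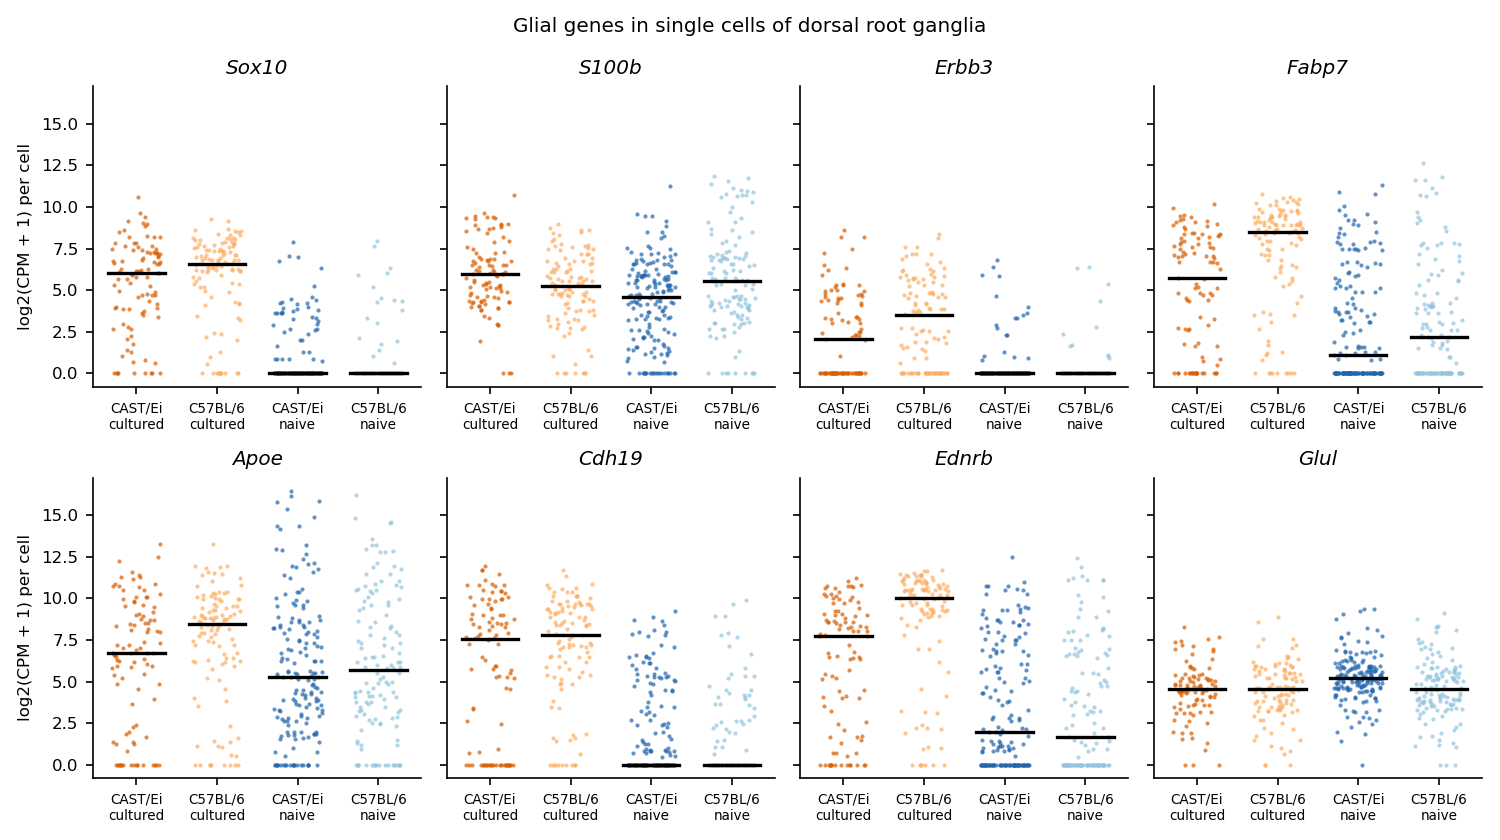
Each point is 1 cell and each bar the median of its group; the vertical axis is log2(CPM + 1) of the named gene, with cultured groups left and naive groups right. Sox10, Erbb3 and Cdh19 lie at 0 in the median naive cell, Fabp7 and Ednrb are low there with a tail of high cells, and Glul has medians of 22.3 to 35.7 CPM in all 4 groups.

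Read against naive cells, 5 of the 8 genes were at least 2-fold higher in cultured CAST/Ei (Sox10, S100b, Erbb3, Cdh19 and Ednrb), where 22.5% of all genes were, and 1 was at least 2-fold lower (Apoe), as were 18.7% of all genes. In C57BL/6, 4 were higher (Sox10, Erbb3, Cdh19 and Ednrb; 23% of all genes) and 2 lower (S100b and Apoe; 20.5% of all genes). Without the glia-like cells of cluster 9, Erbb3 and Ednrb were inside 2-fold in CAST/Ei, at 0.76 and 0.73. Without those of cluster 10, the 4 higher genes of C57BL/6 stayed past 2-fold, the lowest being Ednrb at 1.55. The median log2 ratio of the 8 was 1.39 in CAST/Ei and 1.23 in C57BL/6, beside 0.14 and 0.12 over all genes. Markers of other cells moved with these differences: fibroblast markers were at least 2-fold higher in culture for 11 of 13 in CAST/Ei and 10 of 13 in C57BL/6, and neuron markers lower for 17 of 30 and 26 of 30. In pooled groups more cells with a gene and more reads per cell cannot be told apart, and the part these markers play in each ratio was not tested.

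The genes that work with the 8 were followed as a list of 20 measured partners (of 27 listed). Of these, 11 were at least 2-fold higher and 2 lower in cultured CAST/Ei than in naive CAST/Ei cells (22.5% and 18.7% of all genes). In C57BL/6, 9 partners were higher and 3 lower (23% and 20.5% of all genes). The highest of those with at least 5 CPM in 1 of the groups compared, the minimum for every gene named from a list, were Foxd3, a neural crest transcription factor, at log2 ratios of 3.37 in CAST/Ei and 3.61 in C57BL/6, Sox2, the factor of immature glia, at 3.196 and 3.26, and Erbb2, the partner receptor of Erbb3, at 2.57 and 3.47. Foxd3 had 15.7 CPM in cultured CAST/Ei and 15.1 in cultured C57BL/6, against 0.608 in naive CAST/Ei and 0.323 in naive C57BL/6. Sox2 had 57.8 CPM in cultured CAST/Ei and 52.7 in cultured C57BL/6, against 5.42 in naive CAST/Ei and 4.62 in naive C57BL/6. On the other side stood Nrg1, the neuregulin that neurons make, with 71.7 CPM in cultured against 506 CPM in naive CAST/Ei cells and 26.9 against 425 CPM in C57BL/6, and Abcg1, a cholesterol exporter, with log2 ratios of -2.42 and -3.70. Next lowest in C57BL/6 was Nrg3, another neuregulin, at -2.24, while in CAST/Ei it had 40.2 CPM in cultured cells against 21.3 CPM in naive cells, a log2 ratio of 0.88. Erbb2 and Erbb3 were thus higher and Nrg1 lower in culture in both strains.

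Myelin genes did not share one direction. Of 15 measured (23 listed), 5 were higher and 4 lower in cultured CAST/Ei, and 4 higher and 4 lower in cultured C57BL/6. These were 33.3% and 26.7% in CAST/Ei, beside 22.5% and 18.7% of all genes. In C57BL/6 both shares were 26.7%, near the 23% and 20.5% of all genes. Gldn, gliomedin of the node of Ranvier, had 277 CPM in cultured CAST/Ei and 160 in cultured C57BL/6, against 1.74 in naive CAST/Ei and 1.15 in naive C57BL/6, and the connexin gene Gjc3 had log2 ratios of 2.91 and 2.71. Next came Egr2, the myelination factor, at 2.08 in CAST/Ei and the lipid enzyme gene Ugt8a at 1.32 in C57BL/6. The lowest were Ncmap (-3.05), Drp2 (-2.27) and Dusp15 (-1.97) in CAST/Ei, and Dusp15 (-1.88), Pmp22 (-1.40) and Nfasc (-1.06) in C57BL/6. Pmp22, a structural protein of peripheral myelin, had 656 CPM in cultured against 1733 CPM in naive C57BL/6 cells.

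Of 39 other glial genes in the table (51 listed), 22 were higher and 7 lower in CAST/Ei, and 23 higher and 6 lower in C57BL/6. Over all genes the shares were 22.5% and 18.7% in CAST/Ei, and 23% and 20.5% in C57BL/6. Of 18 genes known to respond in glia to nerve injury (25 listed), 14 and 13 were higher and 1 lower in each strain, with median log2 ratios of 3.07 and 2.93. Gfap, the intermediate filament of reactive glia and on both lists, stood at 109.8 CPM (107.9 to 111.7) in cultured CAST/Ei and 134.5 CPM (132.2 to 136.9) in cultured C57BL/6, against 4.14 CPM (3.84 to 4.45) in naive CAST/Ei and 0.889 CPM (0.722 to 1.08) in naive C57BL/6. The other glial genes with the largest ratios were Pou3f2 (4.18) and Entpd2 (3.58) in CAST/Ei and Lgi4 (4.39) and Col28a1 (3.63) in C57BL/6. Those with the lowest were Mlc1 (-3.64), Pla2g7 (-3.62) and Nrn1l (-3.55) in CAST/Ei and Nrn1l (-4.27), Pla2g7 (-4.09) and Sfrp5 (-2.96) in C57BL/6. Mlc1 was also among the 10 leading genes of a neuron-like cluster, cluster 3 of those described below, with 55 naive CAST/Ei cells and 1 cultured cell.

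Among the injury genes, Nes, the intermediate filament of precursor cells, led in CAST/Ei at 4.77. In C57BL/6 the engulfment receptor Megf10 was among the highest, at 3.88. The lowest injury genes in both strains were Cxcl10, Bdnf and Hbegf, a chemokine, a neurotrophin and a growth factor, at -1.44, -0.67 and 0.63 in CAST/Ei and -0.27, -1.83 and 0.17 in C57BL/6. All 30 neuron genes were in the table, and their median log2 ratio was -1.36 in CAST/Ei and -2.62 in C57BL/6, opposite in sign to the glial lists.

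**Figure D2:**
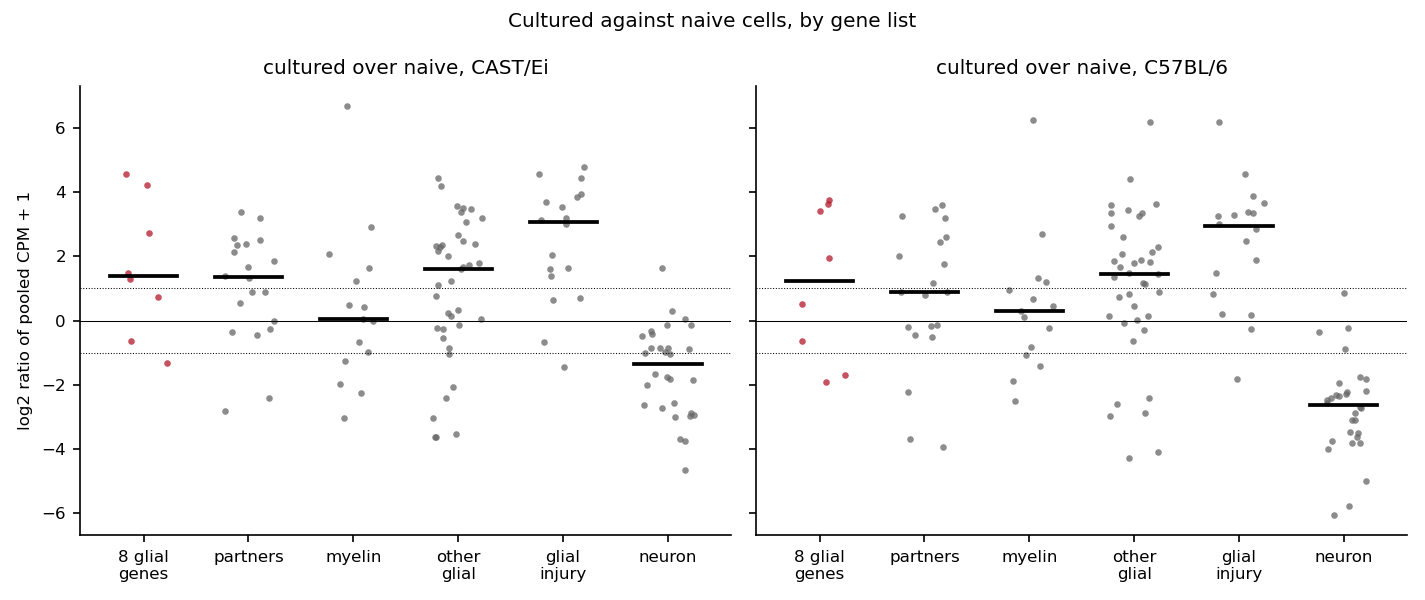
Each point is 1 gene; the vertical axis is the log2 ratio of pooled CPM + 1, cultured over naive, with CAST/Ei on the left and C57BL/6 on the right, bars at list medians and dotted lines at 2-fold. The glial injury list has the highest median (3.07 and 2.93), the myelin list lies near 0, and the neuron list lies below 0.

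How glial and neuronal genes met in the same cell was asked by counting, in each thinned cell, how many of the 8 genes and how many of the 30 neuron markers were detected. At least 4 of the 8 were found in 71.1% of cultured CAST/Ei cells (60.6 to 80.2) and 83.5% of cultured C57BL/6 cells (74.6 to 90.3), against 29.4% of naive CAST/Ei (22.6 to 37.1) and 32.3% of naive C57BL/6 cells (24.2 to 41.2). The unthinned shares were 85.9% in cultured CAST/Ei, 84.7% in cultured C57BL/6, 44.8% in naive CAST/Ei and 48.5% in naive C57BL/6. The median cell carried 5 of the genes in cultured CAST/Ei and 6 in cultured C57BL/6, against 2 in both naive groups.

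Most naive cells rich in these genes also had most neuron markers. Glial-rich here means only 4 or more of the 8 genes. Of the 8, Glul was detected in 75.5% and S100b in 47.85% of all thinned naive CAST/Ei cells, and in 50% and 59.7% of those of C57BL/6. Sox10 was detected in only 5 naive CAST/Ei and 6 naive C57BL/6 cells. With 4 or more of the 8, naive CAST/Ei cells had a median of 27 neuron markers (48 cells, lowest 13) and naive C57BL/6 cells also 27 (40 cells, lowest 14). With 0 or 1 of the 8, the medians were 27.5 in naive CAST/Ei (52 cells, lowest 25) and 28 in naive C57BL/6 (49 cells, lowest 24). At least 20 of 30 neuron markers were found in 41 of 48 glial-rich naive CAST/Ei cells, and in 63 of 63 cells with 2 or 3 and 52 of 52 with 0 or 1 of the 8. In naive C57BL/6 the counts were 34 of 40 at 4 or more, 31 of 35 at 2 or 3 and 49 of 49 at 0 or 1. All naive CAST/Ei cells under 20 neuron markers were thus glial-rich, at the depth of the thinned cells. In culture, CAST/Ei cells had medians of 19 neuron markers at 4 or more (64 cells, 9 to 27), 19 at 2 or 3 (19 cells, 12 to 27) and 15 at 0 or 1 of the 8 (7 cells, 11 to 26). The medians of cultured C57BL/6 cells were 13 (81 cells, 3 to 25), 18.5 (10 cells, 7 to 25) and 8.5 (6 cells, 5 to 16) in the same 3 classes. At least 20 neuron markers were found in 31 of 64 glial-rich cultured CAST/Ei cells and 20 of 81 of C57BL/6. Whether glial and neuronal reads in 1 library came from 1 cell or from 2 captured together cannot be told apart from these counts.

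**Figure D3:**
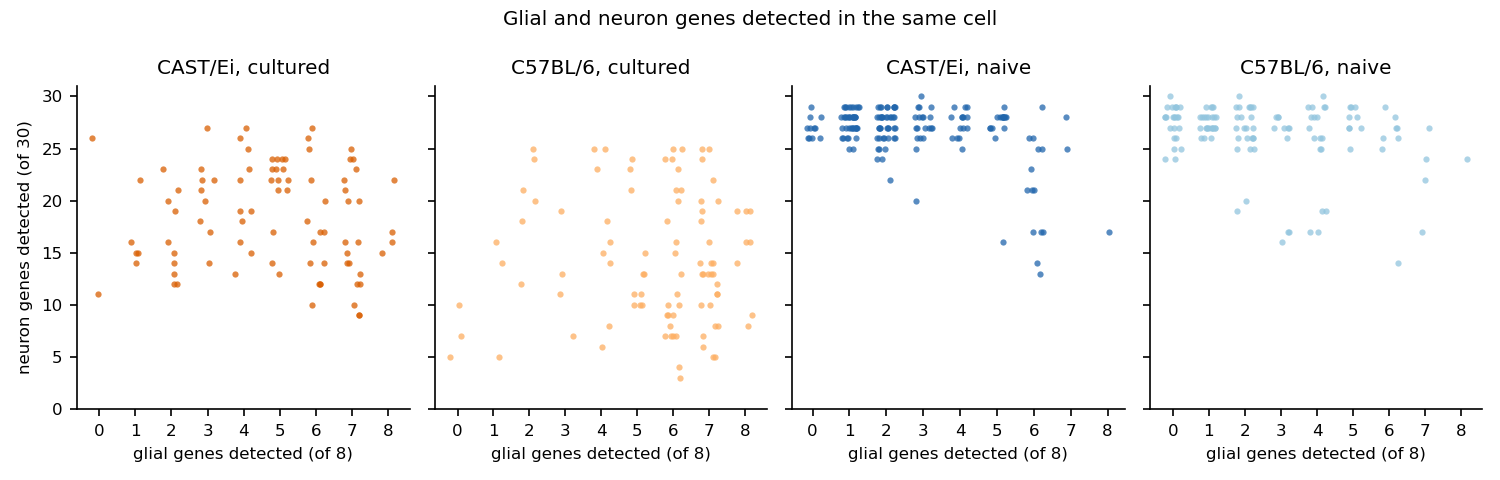
Each point is 1 thinned cell, with the number of the 8 glial genes detected on the horizontal axis (spread sideways for legibility) and the number of 30 neuron markers on the vertical axis, cultured groups left and naive groups right. Naive cells with 4 or more glial genes still have a median of 27 neuron markers, and cultured cells range from 3 to 27.

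Single neuron genes differed in how often they met a glial gene. Tubb3, neuronal tubulin, was detected with Sox10 in 57 of 58 cultured CAST/Ei and 77 of 78 cultured C57BL/6 cells, but also in all 32 and 19 cells without Sox10. The synaptic gene Snap25 was found in 89.7% of the Sox10-positive cultured CAST/Ei cells (52 of 58) and in 70.5% of those of C57BL/6 (55 of 78), and in 32 of 32 and 9 of 19 cells without Sox10. Isl1, a transcription factor of sensory neurons, was detected in 27 of 58 Sox10-positive and 19 of 32 Sox10-negative cultured CAST/Ei cells, and in 22 of 78 and 5 of 19 in C57BL/6. The intervals of the shares with Isl1 overlapped in both strains.

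Apoe and Fabp7, which many naive cells carried, were found in naive cells beside Tubb3 in 85 of 85 and 46 of 46 cells of CAST/Ei and 65 of 65 and 36 of 36 cells of C57BL/6, as Tubb3 was detected in every naive cell. Prph, the filament of small sensory neurons, was detected in 84 of 85 Apoe-positive naive CAST/Ei cells and 62 of 65 Apoe-positive naive C57BL/6 cells. Isl1 was detected in 37 of 46 Fabp7-positive naive CAST/Ei cells (80.4%, 66.1 to 90.6), against 98.3% (93.96 to 99.8) of those without Fabp7. In naive C57BL/6 these shares were 31 of 36 (86.1%, 70.5 to 95.3) and 82 of 88 (93.2%, 85.7 to 97.5), with overlapping intervals.

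Overlaps among the 8 genes in culture are read against how common each gene was. Of 58 Sox10-positive cultured CAST/Ei cells, 82.8% had Ednrb, 81.03% Cdh19 and 77.6% Fabp7, beside 66.7%, 67.8% and 61.1% of all cells of that group. Of 78 Sox10-positive cultured C57BL/6 cells, 93.6% had Ednrb, 92.3% Cdh19 and 91.03% Fabp7, beside 82.5%, 82.5% and 80.4% of all. All 18 and 33 Erbb3-positive cells had Sox10, beside 64.4% of all cells in cultured CAST/Ei and 80.4% in cultured C57BL/6. Glul was no more frequent beside Sox10, in 44.8% against 46.7% of all cells in cultured CAST/Ei and 47.4% against 48.5% in cultured C57BL/6. Beside Erbb3 it was found in 22.2% (4 of 18) and 45.5% (15 of 33). S100b in cultured CAST/Ei was likewise no more frequent beside Ednrb, at 71.7% against 75.6% of all cells, or beside Apoe, at 73.4%. In naive CAST/Ei cells, 40 of 46 Fabp7-positive cells had Ednrb and 41 had Apoe, but only 4 had Sox10. In naive C57BL/6 cells the counts were 32, 35 and 6 of 36.

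To place the genes among kinds of cells, cells were clustered without the 8 genes and without every gene of the glial lists, 93 genes in all, and clusters were named afterwards from marker lists. The glial list used for naming holds the 8 genes, so their height in the glia-like clusters is a description. The 11 other measured genes of that list were also the highest list in both glia-like clusters. Their means were 4.82 (cluster 9) and 5.20 (cluster 10) on the log2(CPM + 1) scale. The neuron list had 4.19 and 3.70 and the fibroblast list 3.51 and 3.83, so the fibroblast list came next in cluster 10. Cluster 9 held 26 CAST/Ei and 3 C57BL/6 cells, cluster 10 held 28 C57BL/6 cells, and no naive cell was glia-like. Genes such as Gdnf and Gldn led cluster 9, and Sfrp1, Crabp1 and genes of cell division led cluster 10.

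**Figure D4:**
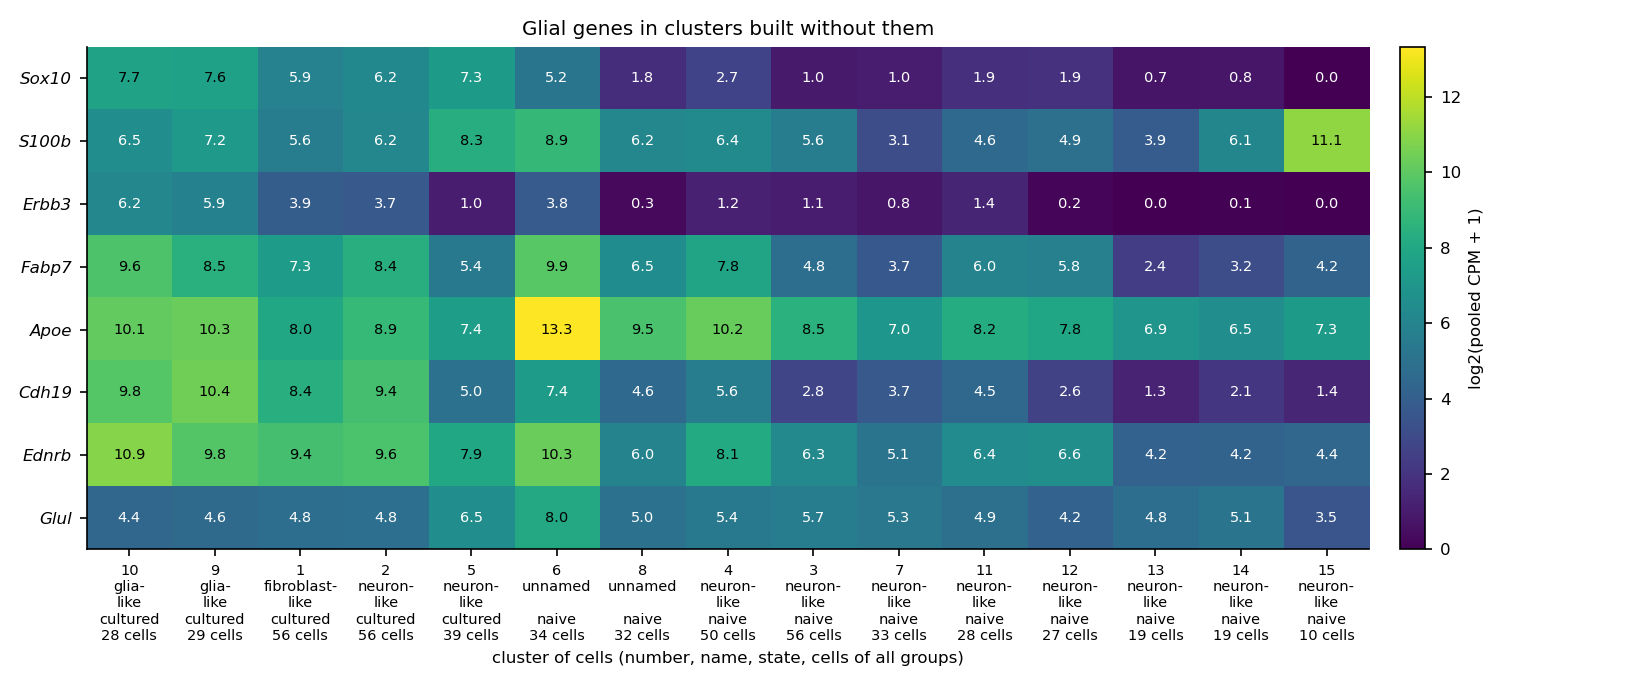
Colour and numbers give log2(pooled CPM + 1) of the 8 genes in 15 clusters, with clusters of cultured cells left and of naive cells right (clusters 3 and 12 hold 1 cultured cell each). Apoe reaches 10211 CPM in cluster 6 and S100b 2217 CPM in cluster 15, and Glul stays at 23.1 and 19.8 CPM in the glia-like clusters 9 and 10.

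The glia-like cells held a large part of the reads of Erbb3, Apoe, Cdh19 and Fabp7, and a small part of those of Glul. In cultured CAST/Ei they were 26.3% of the cells and held 84.8% of the Erbb3, 73.3% of the Apoe, 67.5% of the Cdh19 and 67.5% of the Fabp7 reads, but 16.8% of the Glul reads. In cultured C57BL/6 they were 27.9% of the cells and held 67.4%, 56.6%, 56.98% and 55.4% of the reads of those 4 genes, and 17.9% of the Glul reads. Sox10 was detected in all 24 thinned glia-like CAST/Ei cells and in 28 of 29 of C57BL/6.

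The genes were also found in cultured cells named otherwise. Among fibroblast-like cells Sox10 was detected in 5 of 12 of CAST/Ei and 29 of 39 of C57BL/6 (74.4%, 57.9 to 86.96), and Ednrb in 4 of 12 and 27 of 39. Among neuron-like cells Sox10 was detected in 29 of 54 of CAST/Ei (53.7%, 39.6 to 67.4) and 21 of 29 of C57BL/6 (72.4%, 52.8 to 87.3). Within the neuron-like cells the genes were unevenly spread. In cluster 2, 27 of 28 CAST/Ei and 20 of 21 C57BL/6 cells had at least 4 of the 8, against 8 of 25 and 2 of 7 in cluster 5, whose cells had a median of 4649 genes with a read.

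Set against the other cultured cells, neuron-like CAST/Ei cells (60 against 39) had at least 2-fold lower levels of 4 of the 8 genes, where 24.6% of all genes were lower. These were Erbb3 (5.18 against 40.04 CPM), Apoe (233 against 961), Cdh19 (320 against 980) and Fabp7 (91.9 against 255). In neuron-like C57BL/6 cells (37 against 74), 2 of the 8 were lower, Erbb3 (6.85 against 37.98 CPM) and Cdh19 (195 against 612), where 26.5% of all genes were. Fabp7, at 397 against 399 CPM, and Apoe, at 504 against 561 CPM, had log2 ratios of -0.01 and -0.15 in C57BL/6. Glul went the other way in both strains, with 51.9 CPM (50.1 to 53.7) in neuron-like against 19.9 CPM (18.7 to 21.1) in other cultured CAST/Ei cells, and 99.2 CPM (94.7 to 103.9) against 27.3 CPM (26.2 to 28.5) in C57BL/6. With all variable genes used for clustering, Sox10 joined the lower genes in C57BL/6, and with Ward clusters Fabp7 left them in CAST/Ei.

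In naive cells the reads of the genes were concentrated in cluster 6, with 18 CAST/Ei and 16 C57BL/6 cells. Endothelial and interferon-induced genes led it, among them Flt1. The neuron list was its highest, with a mean of 5.68 on the log scale given above. The glial list, taken over its 11 measured genes other than those followed here, came next at 4.35. The endothelial list (4.08) and the fibroblast list (3.76) were lower. The cluster stayed unnamed. It held 10.3% of naive CAST/Ei and 12.1% of naive C57BL/6 cells and, in that order, 62.5% and 60.9% of the Fabp7, 55.9% and 63.5% of the Ednrb and 63.3% and 68.8% of the Sox10 reads. Apoe stood at 13203 CPM in its CAST/Ei cells and 7494 CPM in its C57BL/6 cells, and Glul at 271 and 246 CPM, against 38.5 and 32.4 CPM in naive neuron-like cells. Its median CAST/Ei and C57BL/6 cells had 8915 and 914 CPM of Apoe, and 496 and 6.09 CPM of Fabp7. Fabp7 was detected in 11 of 15 CAST/Ei and 6 of 15 C57BL/6 thinned cells, and Sox10 in 4 and 3 of 15. The cluster held 51.1% and 31.1% of the S100b reads. The 11 endothelial markers summed to 2270 CPM in its CAST/Ei and 2334 CPM in its C57BL/6 cells, against 100.4 and 97.4 CPM in the naive cells outside it, and the 13 fibroblast markers to 2612 and 12738 CPM, against 496 and 445 CPM.

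Within cluster 6 the genes did not run with the endothelial list. Over its 34 cells, which come from the 2 naive groups and differ in depth, Spearman's rho with the mean of the endothelial list was -0.67 for Fabp7, -0.61 for Ednrb, -0.60 for Apoe and -0.50 for Sox10. Glul was near 0, at -0.01. Cells of the cluster with more endothelial reads thus tended to have fewer reads of these 4 genes.

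Naive cells of the neuron-like clusters had low pooled levels of Sox10, Erbb3 and Cdh19, with wide differences between these clusters. Cluster 8, with 32 naive C57BL/6 cells, is not among them: its highest list was also the neuron list, but the mural marker Rgs5 was among its leading genes and it stayed unnamed, with Fabp7 at 89 CPM and Sox10 at 2.39 CPM. In the naive neuron-like clusters Fabp7 had 41.3 CPM in CAST/Ei and 143.5 CPM in C57BL/6. Sox10 had 1.94 CPM in CAST/Ei and 3.14 CPM in C57BL/6, with detection in 0.676% (0.0171 to 3.71) and 2.56% (0.312 to 8.96) of these cells. Apoe was not low in them, at 299 CPM in CAST/Ei and 819 CPM in C57BL/6, against 233.5 and 504 CPM in cultured neuron-like cells. S100b had 35.2 CPM in CAST/Ei and 277 CPM in C57BL/6, against 249 and 68 CPM in cultured neuron-like cells. At least 4 of the 8 genes were detected in 10 of 26 naive CAST/Ei and 12 of 22 naive C57BL/6 cells of cluster 4. The tachykinin gene Tac1 was among the leading genes of that cluster. None of 12 CAST/Ei and 6 C57BL/6 cells of cluster 13, where the somatostatin gene Sst led, had as many. In cluster 14, 2 of 18 cells had at least 4.

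S100b stood apart from the others in 10 naive C57BL/6 cells, cluster 15, where the heavy neurofilament gene Nefh was among the leading genes. They had 2217 CPM of S100b (2181 to 2253), with 1609 CPM in the lowest, 2013 in the median and 3737 in the highest cell, and they held 49% of the S100b reads of naive C57BL/6. Sox10 and Erbb3 had no read in them, which over their pooled reads allows up to 0.562 CPM, and Cdh19 had 1.67 CPM. No CAST/Ei cell lay in this cluster, so a strain difference and a difference in which neurons were captured cannot be told apart. Without these 10 cells naive C57BL/6 had 144.6 CPM of S100b in place of 267, and the log2 ratio of cultured over naive was -1.04 in place of -1.91.

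Spearman's rho of S100b with Nefh, over all cells of a group, was 0.01 in cultured CAST/Ei, 0.11 in cultured C57BL/6, 0.10 in naive CAST/Ei and 0.54 in naive C57BL/6. The highest Nefh level was 362 CPM in naive CAST/Ei and 5673 CPM in naive C57BL/6, so the ranges over which the values were taken differ. With Dip2a the values of rho were 0.01 in naive CAST/Ei and 0.09 in naive C57BL/6.

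**Figure D5:**
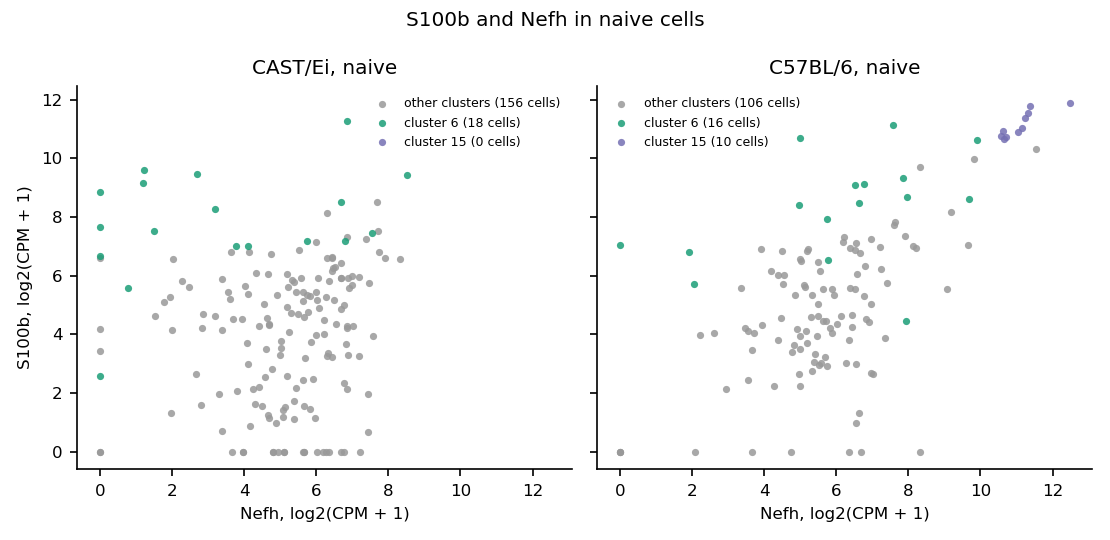
Each point is 1 naive cell, with log2(CPM + 1) of Nefh on the horizontal and of S100b on the vertical axis, CAST/Ei left and C57BL/6 right. The 10 cells of cluster 15 (purple) form the upper right corner in C57BL/6, with 1609 to 3737 CPM of S100b, and cells of cluster 6 are green.

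In cultured CAST/Ei cells S100b and Glul were carried mostly by cluster 5, the neuron-like cells with few genes. These were 29 of 99 cells and held 63.02% of the S100b and 62.2% of the Glul reads, and 43.1% of the Sox10 reads, but 1.88% of the Erbb3 and 1.89% of the Cdh19 reads. Over both strains this cluster had 151.3 CPM of Sox10 while its median cell had 4.04 CPM and its highest 1575 CPM. Without cluster 5 the log2 ratio of S100b, cultured over naive CAST/Ei, was 0.65 in place of 1.49, and that of Glul -1.43 in place of -0.64.

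How the genes varied together from cell to cell was described by Spearman's rho of log2(CPM + 1) within each group, whose cells differ in depth. Fabp7, Apoe, Cdh19 and Ednrb formed 6 pairs with rho of 0.47 to 0.68 in cultured CAST/Ei, 0.37 to 0.76 in cultured C57BL/6, 0.50 to 0.70 in naive CAST/Ei and 0.39 to 0.70 in naive C57BL/6. Glul had a median rho with the 7 others of -0.09 in cultured CAST/Ei, -0.19 in cultured C57BL/6, 0.16 in naive CAST/Ei and 0.22 in naive C57BL/6. S100b had a median with the 6 others of -0.07 in cultured CAST/Ei, 0.20 in cultured C57BL/6, 0.39 in naive CAST/Ei and 0.31 in naive C57BL/6. Over the 15 pairs of the 6 genes other than Glul and S100b, rho had a median of 0.52 (lowest 0.40) in cultured CAST/Ei, 0.57 (0.37) in cultured C57BL/6, 0.47 (0.24) in naive CAST/Ei and 0.46 (0.05) in naive C57BL/6. In naive C57BL/6 the values of Erbb3 ran from 0.05 with Sox10 to 0.31 with Ednrb, while Glul had 0.40 with Ednrb and 0.34 with Apoe. In cultured C57BL/6, 6 of the genes also ran with the mean of 13 cell division genes, Fabp7 at 0.66, Sox10 at 0.53, Apoe at 0.49, Cdh19 at 0.47, Erbb3 at 0.42 and Ednrb at 0.35, while S100b was at 0.09 and Glul at -0.25. In cultured CAST/Ei the same values ran from -0.09 (Glul) to 0.30 (Ednrb), and all 13 genes were at least 2-fold higher in cultured than in naive cells of both strains. Apoe ran with the fibroblast list in naive cells, at 0.46 in CAST/Ei and 0.61 in C57BL/6, and its part in the Apoe level was not tested.

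The genes most like the mean of the 8 were ranked by the lower of their 2 values of rho, one for each strain. Over all 306 naive cells they included Gpm6b, with 0.78 in CAST/Ei and 0.75 in C57BL/6, Sparc (0.74 and 0.78) and Mmd2 (0.72 and 0.74), and further down Cryab, Sdc4, Dbi, Abca8a and Rarres2. Over all 210 cultured cells they included Dbi (0.82 and 0.80) and Gpm6b (0.80 and 0.77), and further down Col28a1, Mmd2, Ptn, Cryab, Vwa1, Cyp2j6 and Fxyd1. The 2 sets of 10 share 5 genes, and 5 and 6 of them were on the glial lists.

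Between the strains, naive cells differed by at least 2-fold in 2 of the 8 genes. S100b (log2 ratio of CAST/Ei over C57BL/6 of -2.01) and Fabp7 (-1.46) were at least 2-fold lower in naive CAST/Ei, as were 8.08% of all genes, and none was 2-fold higher, as were 6.71% of all genes. The others lay between -0.72 (Ednrb) and 0.10 (Erbb3). With cluster 6 left out Apoe joined the lower genes, at 299 CPM in naive CAST/Ei against 792 CPM in naive C57BL/6. With cluster 15 left out the S100b ratio was -1.13 in place of -2.01.

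In culture S100b was at least 2-fold higher in CAST/Ei (1.40), as were 15.6% of all genes, and Ednrb (-1.38) and Fabp7 (-1.26) were lower, as were 11.9% of all genes. The remaining 5 lay between -0.58 (Erbb3) and 0.30 (Sox10). Without cluster 5 the ratios of S100b and Fabp7 were 0.64 and -0.85, inside 2-fold, and that of Ednrb was -1.11. In glia-like cells alone, mostly cluster 9 in CAST/Ei and cluster 10 in C57BL/6, Ednrb had 752 CPM in CAST/Ei against 1923 CPM in C57BL/6 and Fabp7 355 against 726 CPM, while Sox10 had 195 against 204 CPM and Erbb3 56.5 against 70.98 CPM. Neuron markers moved with the strain in culture, with 19 of 30 at least 2-fold higher and 2 lower in CAST/Ei, and fibroblast markers with 0 higher and 10 of 13 lower, and their part in these ratios was not tested.

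Of the lists, whose counts take in genes of any level, partners had 2 genes higher and 3 lower in naive CAST/Ei than in naive C57BL/6, and 5 higher and 2 lower in culture. Over all genes 6.71% were higher and 8.08% lower in naive CAST/Ei, and 15.6% and 11.9% in culture. These shares also stand beside the lists below. In naive cells the highest partners included the lipid transporter gene Abca1 (1.26) and the lipoprotein receptor Lrp8 (0.61), and the lowest the other endothelin receptor Ednra (-2.04), the glutamate transporter gene Slc1a3 (-1.57) and Lrp1 (-0.97). In culture the highest were Nrg3 (3.21), Slc38a1 (1.82) and Nrg1 (1.38), and the lowest Egfr (-1.83), Slc1a3 (-1.83) and Lrp1 (-0.85). The glutamate transporter of satellite cells was thus lower in CAST/Ei in both states.

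Myelin genes had 4 higher and 3 lower in naive CAST/Ei, led by Ugt8a (1.93), Ncmap (1.83) and Drp2 (1.40) and ending with Nfasc (-1.42), Cnp (-1.16) and Egr2 (-1.14). In culture 2 were higher and 3 lower, from Ugt8a (2.25), Egr2 (0.83) and Gldn (0.79) down to Cnp (-1.19), Drp2 (-1.17) and Mbp (-1.04). Ugt8a, which makes the galactolipids of myelin, had 104.2 CPM in cultured CAST/Ei against 21.1 CPM in cultured C57BL/6, and 32.7 against 7.84 CPM in naive cells.

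Of the other glial genes 3 were higher and 10 lower in CAST/Ei in each state. In naive cells they ran from Mlc1 (1.67), Cadm2 (1.24) and Tyrp1 (0.94) to Sfrp5 (-2.53), Ednra (-2.04) and Sparcl1 (-1.75), and in culture from Nrn1l (1.62), Fbxo2 (1.23) and Tyrp1 (1.17) to Sparcl1 (-2.74) and Fxyd3 (-2.18), both among the lowest. Mlc1 was a leading gene of neuron-like cluster 3, whose naive cells were all CAST/Ei. Of the injury genes 2 were higher and 3 lower in each state. In naive cells Bdnf (0.97), Megf10 (0.73) and Btc (0.22) were highest and Cxcl10 (-2.23), Id1 (-1.87) and Nes (-1.05) lowest, and in culture Bdnf (2.13), Gdnf (1.54) and Runx2 (0.54) were highest and Cxcl10 (-3.39), Ccl2 (-1.76) and Id3 (-1.36) lowest.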

How the data were processed

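The authors deposited raw read counts, whole numbers for 11251 genes in 516 single-cell libraries without molecular identifiers, so amplified copies count separately. Each column was matched to its sample by title, and 0 columns were left unused. Bowtie2, SAMtools and the build mm10 appear without roles per the submitters' processing notes. How reads were assigned to genes, with which annotation and which gene filter, is not given in the sources used here. No mitochondrial name occurs, and every gene had a read in at least 60 cells. Counts can be lowered by reads across introns, which Bowtie2 does not join, and in CAST/Ei by mismatches to a C57BL/6 genome. There were 99 cultured CAST/Ei, 111 cultured C57BL/6, 174 naive CAST/Ei and 132 naive C57BL/6 cells.

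Counts were pooled per group, scaled to CPM and compared as log2 ratios of CPM + 1 (called at 2-fold). Detection used 200000 thinned reads. Clusters came from 2000 variable genes, 20 principal components, 15 neighbours and Leiden resolution 1 (Python 3.11.15, scanpy 1.11.5, leidenalg 0.10.2), and took the name of the highest marker list unless another class had more markers among their 10 leading genes by fold. No doublet caller was run. The macrophage list had 1 of 11 genes in the table (pooled 19.3, 3.53, 7.28 and 2.18 CPM in cultured CAST/Ei, cultured C57BL/6, naive CAST/Ei and naive C57BL/6), the mural list 5 of 9, and the other immune and erythroid lists 0 of 8 and 0 of 7. All 8 genes were named; from each list the 3 highest and 3 lowest log2 ratios among genes with at least 5 CPM in 1 of the 2 groups were named, and the 10 genes most like the mean of the 8. Some genes that this rule names are not reported here. edgeR 4.0.16 (R 4.3.3) gave TMM factors for an alternative. The scripts were tested on simulated data. Gene positions are from the GENCODE annotation of GRCm38. The 8 genes and all lists were chosen with earlier results of these data known. Sequences not held in the tables used here were not analysed here.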

Additional observations from a re-analysis of the deposited data

Results flagged for a closer look

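S100b was the gene of the 8 whose cultured-over-naive ratio had opposite signs in the strains. The log2 ratio was 1.49 in CAST/Ei (186 CPM in cultured against 65.6 CPM in naive cells) and -1.91 in C57BL/6 (70.1 against 267 CPM), a difference of 3.4 on the log2 scale. The difference was not tested, since each group is 1 sample. Without the 10 naive C57BL/6 cells of cluster 15 the C57BL/6 ratio was -1.04, and without the cultured cells of cluster 5 the CAST/Ei ratio was 0.65.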

How the results depend on the processing

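Alternatives without clusters 5, 6, 9, 10 or 15, and with cluster 8 beside the neuron-like clusters, were chosen after seeing the data. The count of genes at least 2-fold lower in culture was 0 in CAST/Ei (1 in all cells) and 1 in C57BL/6 (2 in all cells) with neuron-like clusters only, with neuron-like clusters and cluster 8, and without cluster 6. Between strains in culture, 2 were higher in CAST/Ei (1 in all cells) with neuron-like clusters with or without cluster 8, and without cluster 5 these counts were 0 higher and 1 lower (2 in all cells). The Apoe ratio of cultured over naive CAST/Ei turned to 0.92 without cluster 6. The cause was not tested. Shares of cells with at least 4 of the 8 genes, in the order cultured CAST/Ei, cultured C57BL/6, naive CAST/Ei and naive C57BL/6, were 87.8%, 93.8%, 50.9% and 60.5% at 1 thinned read. In cultured CAST/Ei, naive CAST/Ei and naive C57BL/6 they were 58.9%, 19.6% and 19.4% at 10 reads, 58.3%, 21.7% and 22.2% at 100000 thinned reads, and 85.9%, 44.8% and 48.5% without thinning. Genes at least 2-fold higher in culture numbered 6 in CAST/Ei (5 in all cells) and 6 in C57BL/6 (4 in all cells) with neuron-like clusters with or without cluster 8, and 6 and 5 without cluster 6. The shares over all genes were not counted under these alternatives, so no such count of the 8 genes has a background beside it. Of the single log2 ratios no other called one turned. With median-of-ratios or TMM scaling the all-gene median of cultured over naive, 0.14 in CAST/Ei and 0.12 in C57BL/6, came to -0.02 and 0.00 (median-of-ratios) or -0.01 in both (TMM). No paired analysis was possible because cells of different groups share only a number and no result comes from a test. With 1 sample a group, animal, culture and capture run cannot be told apart from group.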
